A study of Mus musculus with 41 samples.

Results

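Sox4, Lef1, Tcf7 and Tox encode nuclear proteins that bind DNA through an HMG box, and their expression was followed here through mouse B cell development. Members were chosen by name: every probe set, a group of short oligonucleotides against 1 transcript region, that the array's annotation table assigns to one of these genes. This gave 13 of 45101 deposited probe sets, 8 for Sox4, 2 for Lef1 and 3 for Tox, so that 3 of the 18193 genes with a probe set are described. The table used here lists no probe set for Tcf7, and its expression is not analysed here.

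RNA from flow-sorted cells of C57BL/6 mice, all with wildtype Pax5 and no treatment, was hybridised to 41 single-colour Affymetrix arrays, 1 sample each. Of the 41, 7 came from common lymphoid progenitors (CLP) and 7 each from fractions A and B of the Hardy scheme, and fractions C, D, E and F had 5 each. In that scheme, as background, A holds pre-pro-B cells, B and C pro-B to large pre-B cells, D small pre-B cells, E immature B cells and F mature recirculating B cells. The labels give no age, tissue or sorting gate, and do not say whether the arrays of a population came from separate animals, so p-values reflect variation among these samples only, and part of it may be technical.

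The HMG box bends DNA and brings other regulators together. Lef1 and Tcf7 recruit beta-catenin and thereby read out Wnt signalling, or bind Groucho (Tle) repressors when beta-catenin is absent. Sox4 belongs to the SoxC group with Sox11 and Sox12, and mice without Sox4 or without Lef1 have defects in early B cell development. Tox is best known from T cells, natural killer (NK) cells and innate lymphoid cells (ILC), whose development depends on it, and Tcf7 from the early T cell programme.

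Values are linear MAS5 signals that the authors had scaled to the same trimmed mean on every array. Differences are of log2(signal + 32), later population minus earlier, ± standard error, which understates changes of low signals. A probe set was tested if it reached its array's median signal on at least 5 arrays, and called at an adjusted p under 0.05 (limma, fit on the arrays of the 2 populations compared, Benjamini-Hochberg over 28459 probe sets). Of the 13 probe sets 11 were tested. The other 2, 1443778_at and 1458332_x_at of Sox4, were below the array median on every array, with highest signals of 61.3 and 39.5. Sox4 1419157_at and the 3 Tox probe sets passed mainly through the populations where they are high, so their being different somewhere follows in part from the filter.

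The B lineage label fitted least well for fraction A. The summed signal of 9 B lineage markers (Cd79a, Ebf1, Rag1 and others) was 3423 to 72535 over the A arrays, with 72535, 24598 and 46875 on A arrays 4, 6 and 7 and 8225 or less on the other 4, against 36227 to 50981 in CLP and 68555 to 96823 in B. The sum of 9 NK markers was 39308 to 73495 in A, against 1922 to 2958 in CLP and 1169 to 1937 in B. In C it was 1899 to 7662, the highest on array 1, and in D 836 to 1277. Of these 9 markers 6 were higher and 0 lower in C than in B (16% and 7.58% of all probe sets). In D vs C 8 were lower and 0 higher (21.5% and 20.6%). Arrays of A also correlated less well with each other (mean correlation per array 0.758 to 0.868) than those of the other populations (0.887 to 0.964), and the Gapdh probe set at the 3′ end exceeded that at the 5′ end 12.7 ± 9.92 times in A, 7.52 ± 2.33 times in B and 4.17 ± 0.519 times in CLP (SD, n = 7 each), and 4.95 ± 1.14 times in C (SD, n = 5). The part of these in the results on A, B and C was not tested. The sum of 4 mature B markers was 22989 to 31462 in E and 29028 to 31994 in F, against 2937 to 5361 in D. In bulk RNA of this kind, fewer cells of a type and less RNA per cell cannot be told apart. The median of all probe sets shifted by -0.25 in A vs CLP, -0.22 in B vs CLP and 0.25 in C vs B, and by 0.03 or less in the other comparisons, and member differences should be read against these.

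Of the 11 tested probe sets, 4 were lower and 0 higher in A than in CLP (background over all probe sets: 12% lower, 5.51% higher). Between B and CLP 4 were higher and 3 lower (8.89% and 20.5%), and between B and A 4 were higher and 1 lower (3.85% and 4.79%). Between C and B 2 were higher and 1 lower (16% and 7.58%), and between D and C 1 was higher and 3 lower (20.6% and 21.5%). E had 8 lower and 0 higher than D (10.9% and 11.1%), F had 2 lower and 0 higher than E (1.63% and 2.17%), and F had 11 lower and 0 higher than CLP (28.2% and 28.6%). The arrays of the 2 populations did not overlap for 3 of the 11 in A vs CLP (7.84% of all probe sets), 3 in B vs CLP (11.1%), 4 in B vs A (4.11%), 2 in C vs B (12.6%), 3 in D vs C (27.7%), 6 in E vs D (16.4%), 1 in F vs E (5.37%) and 10 in F vs CLP (33.5%). The scale of the arrays bears on these backgrounds: of all calls, 31.5% were higher in A than in CLP (56.2% after median centring), 30.3% higher in B than in CLP (44.4% after quantile normalization, 75% after median centring), 44.5% higher in B than in A (64.9% after median centring) and 67.8% higher in C than in B (54.2% and 23.6%). Probe sets of 1 gene are not independent, and the 11 stand for 3 genes. The share of probe sets that differed over the 7 populations was 73.8% in the moderated F-test, and adjusted p-values of the brightest probe sets were 1.11e-13 for Sox4, 2.7e-14 for Lef1 and 4.07e-12 for Tox.

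**Figure D1:**
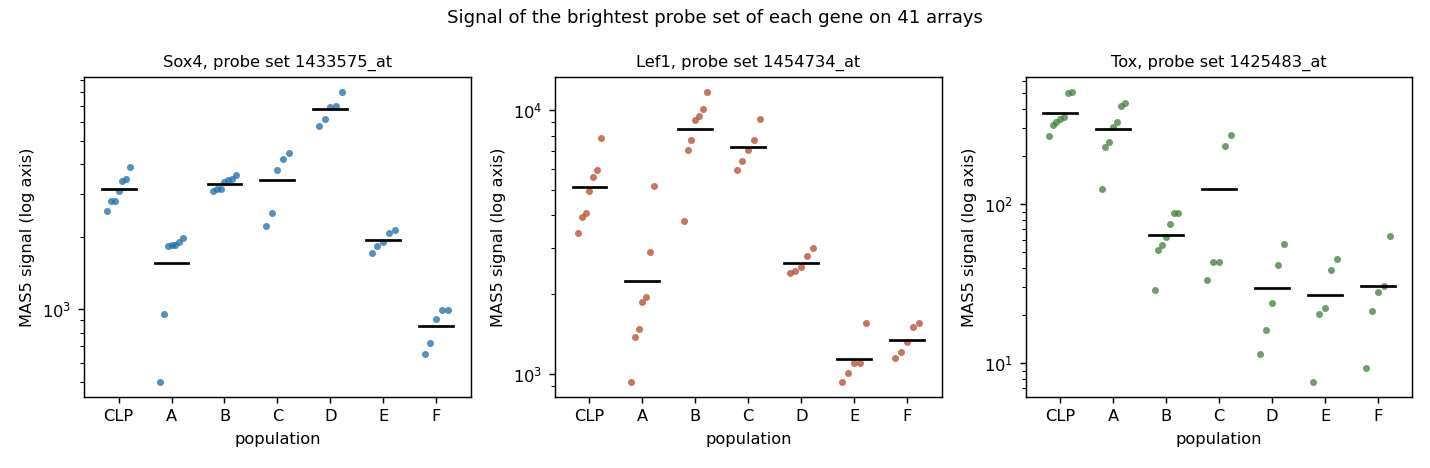
MAS5 signal (log axis) of the probe set with the highest mean of Sox4, Lef1 and Tox on each of 41 arrays, by population from CLP to F; points are arrays and lines are means. Sox4 has its highest mean in D, Lef1 in B and Tox in CLP.

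By its brightest probe set Sox4 was high in CLP and in the pro-B fractions B and C, lower in A between them, highest in small pre-B cells (D) and lowest in mature B cells (F). The gene has a single short locus at chr13:28948919-28953699 on GRCm38.p6. Its brightest probe set, 1433575_at, gave 2561, 3092 and 3885 in CLP, 497, 1855 and 1973 in A and 3104, 3369 and 3599 in B (lowest, median and highest array). It gave 2524, 2226, 4215, 3802 and 4453 on the arrays of C and 6192, 5798, 6999, 8030.1 and 6942 on those of D. In E the signals were 2077, 1836, 1912, 2136 and 1714, and in F 997, 722, 654, 992 and 908. Every D array was above every other array of the series, and every F array was below every array of CLP, B, C, D and E. The A arrays stood close together at 1828 to 1973 except for arrays 6 and 7, at 497 and 959.

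The signal of 1433575_at averaged 6792 ± 858 in D and 3444 ± 1009 in C (SD, n = 5 each), a difference of 1.02 ± 0.17 (limma, adjusted p = 0.000155). E averaged 1935 ± 173, a difference from D of -1.79 ± 0.10 (adjusted p = 2.16e-10). F averaged 854 ± 158, a difference from E of -1.16 ± 0.14 (adjusted p = 4.58e-05). None of these 3 pairs of populations had overlapping arrays. From first to last the difference of F and CLP was -1.85 ± 0.14 (adjusted p = 1.25e-09).

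At the start of the path 1433575_at averaged 1554 ± 582 in A and 3153 ± 467 in CLP (SD, n = 7 each), a difference of -1.12 ± 0.28 (adjusted p = 0.00955; 0.0784 after median centring of each array). B averaged 3331 ± 189.5, higher than A by 1.21 ± 0.29 (adjusted p = 0.00829), and the difference of B and CLP was 0.09 ± 0.11 (95% interval -0.15 to 0.33, adjusted p = 0.593; called at 0.51 after median centring, adjusted p = 0.00268). In order of level, D was above B, and CLP above E, by exact two-sided permutation tests (adjusted p = 0.0113 for both, over 18 neighbouring pairs of the 3 brightest probe sets). B, C and CLP did not differ beyond their spread as neighbours, nor did E, A and F (adjusted p of 0.159 or more for each neighbouring pair), although E and F differed in the limma fit.

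Of the 6 tested Sox4 probe sets, 1433575_at alone had its highest mean in D, and 1455867_at also had its highest median there. In D vs C the other 5 gave 0.36, 0.13, 0.32, 0.36 and -0.79 (1419156_at, 1449370_at, 1455867_at, 1419155_a_at and 1419157_at), and none was called, although 1419157_at was called without C array 1 or 2 or D array 5 (adjusted p = 0.0102, 0.0265 and 0.0402). C arrays 1 and 2 were the lowest of C and D array 5 the highest of D on it, so leaving each out had to enlarge the difference. The difference of 1433575_at exceeded that of 1455867_at by 0.69, of 1419155_a_at by 0.66 and of 1419157_at by 1.81 (exact two-sided permutation of within-array differences, adjusted p = 0.0462 for each over 64 such tests, raw p at the smallest value 5 against 5 arrays allow, 0.00794). Against 1419156_at and 1449370_at the excess was 0.66 and 0.89 and did not pass (adjusted p = 0.101 and 0.0695). The highest mean lay in B for 1419156_at, 1449370_at and 1455867_at, in A for 1419155_a_at and in C for 1419157_at, the value for A resting on array 4. Those for B rested in part on arrays 1 and 4: with these left out the mean was 1473 in D and 1001 in B on 1449370_at, 939 in D and 782 in B on 1455867_at, and 1191 in D and 1311 in B on 1419156_at.

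All 6 tested Sox4 probe sets were lower in E than in D, with differences of -1.79 to -0.87, and lower in F than in CLP, with differences of -2.30 to -1.14. Of these, 1455867_at gave 930.2, 939, 903, 715 and 1208 on the arrays of D and 244, 312, 272, 239 and 233 on those of E, without overlap, a difference of -1.72 ± 0.16 (adjusted p = 1.22e-07). F gave 239.7, 72.7, 46.6, 107 and 67.8 on this probe set, where F array 1 alone lay within the range of E, and the difference of F and E was -1.21 ± 0.29 (adjusted p = 0.0232; 0.0505 to 0.0626 without each of E arrays 1 to 4 and F arrays 2, 3 and 5 in turn). The E vs D call of the dim probe set 1419157_at, -0.87 ± 0.28 (adjusted p = 0.0293), was also lost without D array 1, 4 or 5 or E array 2 or 5 (0.0611 to 0.0811). In 1 fit over all 41 arrays, where the spread of A and B enters, the E vs D calls of 1419156_at, 1419155_a_at and 1419157_at and the F vs E call of 1455867_at were lost (adjusted p = 0.136, 0.113, 0.224 and 0.404).

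The next brightest Sox4 probe sets had flatter profiles up to D. Over CLP, A, B, C, D, E and F, 1419156_at averaged 895, 1115, 2159, 914, 1191, 480.3 and 322. The same series for 1449370_at was 1142, 460.1, 1716, 1326, 1473, 479 and 269. For 1419155_a_at it was 412, 901, 818, 543, 681, 205 and 152. F had the lowest mean on each of these 3, followed by E on 1419156_at and 1419155_a_at and by A on 1449370_at. On 1449370_at the arrays of E gave 448, 478, 509, 741 and 219 and those of D 895, 1195, 1124, 1769.9 and 2382, a difference of -1.56 ± 0.29 (adjusted p = 0.00131), without overlap.

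Single arrays decided much of what the dimmer Sox4 probe sets showed in A and B. A array 4 gave 5405 on 1419155_a_at, 4414 on 1419156_at and 2832 on 1455867_at, where the other 6 A arrays gave 45.8 to 352, 106 to 1129 and 176 to 434, yet 1858 on 1433575_at and 248 on 1449370_at, inside the range of the others. It is also the A array with the largest B lineage sum, the lowest mean correlation with its group (0.758), the lowest array median (69.1) and the highest Gapdh 3′ to 5′ ratio (33.8, the next in A being 16.7). The part of these in its Sox4 signals was not tested. Without it the difference of A and CLP was called for 1455867_at (-1.01, adjusted p = 0.0124, against -0.55, 0.425 with it) and for 1419155_a_at (-1.50, adjusted p = 0.00609, against -0.76, 0.458 with it). With all arrays 2 of 6 probe sets were lower in A than in CLP, 1433575_at and 1449370_at (-1.37 ± 0.30, adjusted p = 0.00457). The difference of 1419157_at was -0.91 (adjusted p = 0.0638) and was called without A array 5 (-1.14, adjusted p = 0.0123). Array 5 was the highest of A on this probe set, as array 4 was on 1455867_at and 1419155_a_at. Leaving out the highest array had to lower A, and the calls so gained give no separate evidence. B arrays 1 and 4 were high on 1419156_at (4327 and 4231, others 798 to 1657) and on 1449370_at (3542 and 3466, others 766 to 1256) and not on 1433575_at (3104 and 3167).

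Between B and CLP, 3 of the 6 were higher in B: 1419156_at (1.00 ± 0.30, adjusted p = 0.0159), 1419155_a_at (0.86 ± 0.23, adjusted p = 0.00751) and 1455867_at (0.67 ± 0.24, adjusted p = 0.0455). In 1 fit over all 41 arrays none of the 3 was called (adjusted p = 0.0595, 0.215 and 0.166). The call of 1455867_at was also lost on leaving out any of CLP arrays 1 to 6 or B arrays 1, 3, 4 or 5 (0.0524 to 0.0953). Between B and A, 1433575_at and 1449370_at (1.69 ± 0.41, adjusted p = 0.0102) were higher in B. Without A array 4 the same comparison also called 1419156_at, 1455867_at and 1419155_a_at, at 1.91, 1.68 and 2.36 (adjusted p = 0.00962, 0.00124 and 0.00031). That array was the highest of A on these 3, so leaving it out had to enlarge the differences, and the calls give no separate evidence. The call of 1449370_at was lost without B arrays 1 and 4 together (1.17, adjusted p = 0.0757).

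The 2 calls of Sox4 between C and B ran in opposite directions. On 1419157_at C gave 129, 169.5, 439, 527 and 283 and B 5.5, 116 and 121 (lowest, median and highest), a difference of 1.55 ± 0.41 (adjusted p = 0.0105; 0.0619 after quantile normalization). On 1419156_at the difference was -0.99 ± 0.35 (adjusted p = 0.046), a call that was lost without any 1 of C arrays 1 to 5 or B arrays 1 to 4 (0.0523 to 0.106). The brightest probe set gave -0.0037 (95% interval -0.37 to 0.37). On it C arrays 1 and 2, at 2524.5 and 2226, lay below every B array (3104 to 3599). C arrays 3 to 5, at 3802 to 4453, lay above every B array, so the near equal means cover a split within C.

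**Figure D2:**
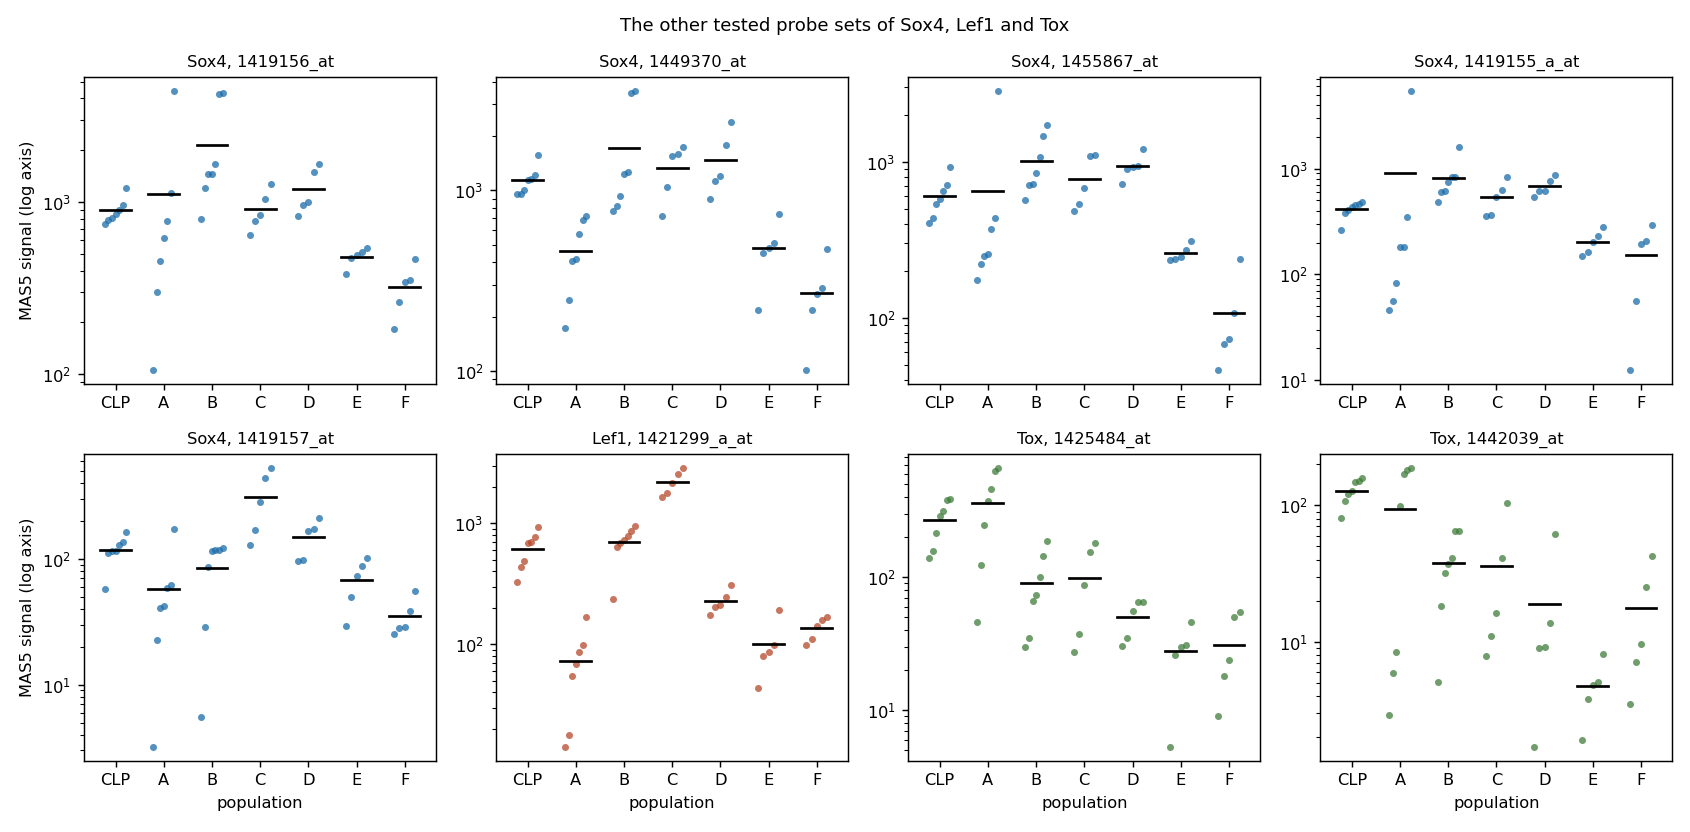
MAS5 signal (log axis) of the other 8 tested probe sets on each array, by population from CLP to F; points are arrays and lines are means. A array 4 stands at 5405 on Sox4 1419155_a_at, and Lef1 1421299_a_at is highest in C, on all 5 arrays.

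The RefSeq table of promoter windows, 250 bases before to 50 after a start site on GRCm38.p6, holds 1 window for Sox4 and 4 for Lef1. Of these, 3 are shown because Sox4 and Lef1 fell together in E and because the 2 Lef1 probe sets differed in C. Capitals mark matches on either strand to one of 3 motifs. The first is CTTTGA, which reads as TCAAAG on the other strand and is the core that TCF/LEF proteins recognise. The second is CTTTGT, the core of SOX sites, which reads as ACAAAG on the other strand. The third is the E-box CAGCTG, which reads the same on both strands. No matches overlapped in these windows. The Sox4 window lies at chr13:28953650-28953949, minus strand, the first Lef1 window at chr3:131110047-131110346, plus strand, and an inner Lef1 window, from a start site 45997 bases further on, at chr3:131156044-131156343, plus strand.
Sox4 promoter: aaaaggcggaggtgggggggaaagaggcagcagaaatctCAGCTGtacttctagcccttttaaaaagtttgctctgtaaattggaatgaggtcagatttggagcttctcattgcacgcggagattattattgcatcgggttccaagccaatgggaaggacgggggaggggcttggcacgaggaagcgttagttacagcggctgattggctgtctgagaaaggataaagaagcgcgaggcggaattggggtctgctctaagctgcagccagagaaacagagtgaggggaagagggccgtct
Lef1 promoter, first window: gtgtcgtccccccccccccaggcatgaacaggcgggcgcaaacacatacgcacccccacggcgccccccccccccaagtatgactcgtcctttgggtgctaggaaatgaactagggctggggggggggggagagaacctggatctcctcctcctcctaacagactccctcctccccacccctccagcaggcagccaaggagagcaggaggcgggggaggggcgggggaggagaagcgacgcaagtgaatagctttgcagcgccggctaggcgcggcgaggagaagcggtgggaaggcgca
Lef1 promoter, inner window: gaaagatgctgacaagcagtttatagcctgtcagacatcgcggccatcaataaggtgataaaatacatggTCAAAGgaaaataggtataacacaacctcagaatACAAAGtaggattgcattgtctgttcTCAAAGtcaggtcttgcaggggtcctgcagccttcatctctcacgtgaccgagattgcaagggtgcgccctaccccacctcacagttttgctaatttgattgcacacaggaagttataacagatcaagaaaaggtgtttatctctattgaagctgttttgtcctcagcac
The Sox4 window held 1 E-box, starting 211 bases before the start site, and none of the other motifs. The first Lef1 window held none of the 3, nor did another 26 bases on, and a window 2494 bases on held 1 E-box 205 bases before its start site. The inner one held 2 TCF/LEF cores, at 180 and 120 bases before the start site, and 1 SOX core at 146 bases before it. Of all 32851 windows of this length, 16.0% held the TCF/LEF core, 18.7% the SOX core and 16.3% the E-box, and no binding was measured. Of 2 windows listed for Tcf7, 1 held an E-box, 159 bases before its start site, and neither held the other motifs.

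Lef1 was highest in the pro-B fractions B and C, low in A, and low again from D onward. The gene spans chr3:131110297-131224357 on GRCm38.p6. Its brighter probe set, 1454734_at, gave 3429, 4919 and 7869.7 in CLP, 928, 1873 and 5152 in A and 3784, 9153 and 11767 in B (lowest, median and highest). It gave 6419.6, 5944, 7694, 9239.5 and 7075 in C and 3011, 2793, 2539, 2446 and 2406 in D. In E the signals were 930.1, 1557, 1002, 1096 and 1097, and in F 1147, 1321, 1504, 1209 and 1561. C and D did not overlap, nor did D and E. Within CLP arrays 1 to 3, at 3429 to 4083, were below arrays 4 to 7, at 4919 to 7870, and B array 5, at 3784, was the lowest of B.

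The largest steps of Lef1 were those around fraction A and from C to D. On 1454734_at A averaged 2239 ± 1425 and CLP 5104 ± 1518 (SD, n = 7 each), a difference of -1.33 ± 0.30 (adjusted p = 0.00554). B averaged 8454 ± 2573, higher than A by 2.03 ± 0.32 (adjusted p = 0.000153). D averaged 2639 ± 257 and C 7274 ± 1282 (SD, n = 5 each), a difference of -1.44 ± 0.12 (adjusted p = 2.20e-07), and E averaged 1136 ± 245, a difference from D of -1.21 ± 0.13 (adjusted p = 9.12e-07). F and E differed by 0.25 ± 0.15 (adjusted p = 0.448). B was above CLP by 0.70 ± 0.21 (adjusted p = 0.0181), and this call was lost after quantile normalization, at 0.35 (adjusted p = 0.229), and when B arrays 1 and 4 were both left out, at 0.54 (adjusted p = 0.0868).

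In order of level on this probe set, CLP was above D (exact two-sided permutation, adjusted p = 0.0227 over the same 18 pairs). B and C, and then D, A, F and E, were neighbours that did not differ beyond their spread (adjusted p of 0.268 or more), and C was above CLP at an adjusted p of 0.0909.

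The second Lef1 probe set, 1421299_a_at, put the maximum in C alone. It gave 326, 689 and 923 in CLP, 14.2, 69.3 and 168 in A and 239, 724 and 941 in B (lowest, median and highest), and 1778, 1648, 2133, 2552 and 2844 on the arrays of C. D gave 248, 212, 205, 174 and 312, E 98.7, 192, 87.1, 79.4 and 43.6 and F 98, 159, 168, 141 and 111. All C arrays were above every array of the other populations on this probe set, and 6 of 7 A arrays were below their array's median. C averaged 2191 ± 506 and B 698 ± 228, a difference of 1.67 ± 0.27 (adjusted p = 0.000366), where 1454734_at gave -0.16 ± 0.22 (adjusted p = 0.634).

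The 2 Lef1 probe sets differed from each other in 4 of the 8 comparisons by exact two-sided permutation of within-array differences, adjusted over the same 64 tests. Their gap, 1454734_at minus 1421299_a_at, was -1.83 in C vs B (adjusted p = 0.0269), 1.64 in D vs C (adjusted p = 0.0462), 1.40 in A vs CLP (adjusted p = 0.0448) and 0.56 in B vs CLP (adjusted p = 0.0269). In D vs C 1421299_a_at gave -3.08 ± 0.18 (adjusted p = 7.36e-09), the largest difference of any member in any comparison, and in A vs CLP -2.73 ± 0.35 (adjusted p = 4.11e-05). Both probe sets were lower in E than in D (1421299_a_at -1.06 ± 0.26, adjusted p = 0.00533) and in F than in CLP (-1.85 ± 0.16 and -1.91 ± 0.23, adjusted p = 1.91e-08 and 1.11e-06). Which transcripts each probe set reads was not examined here.

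**Figure D3:**
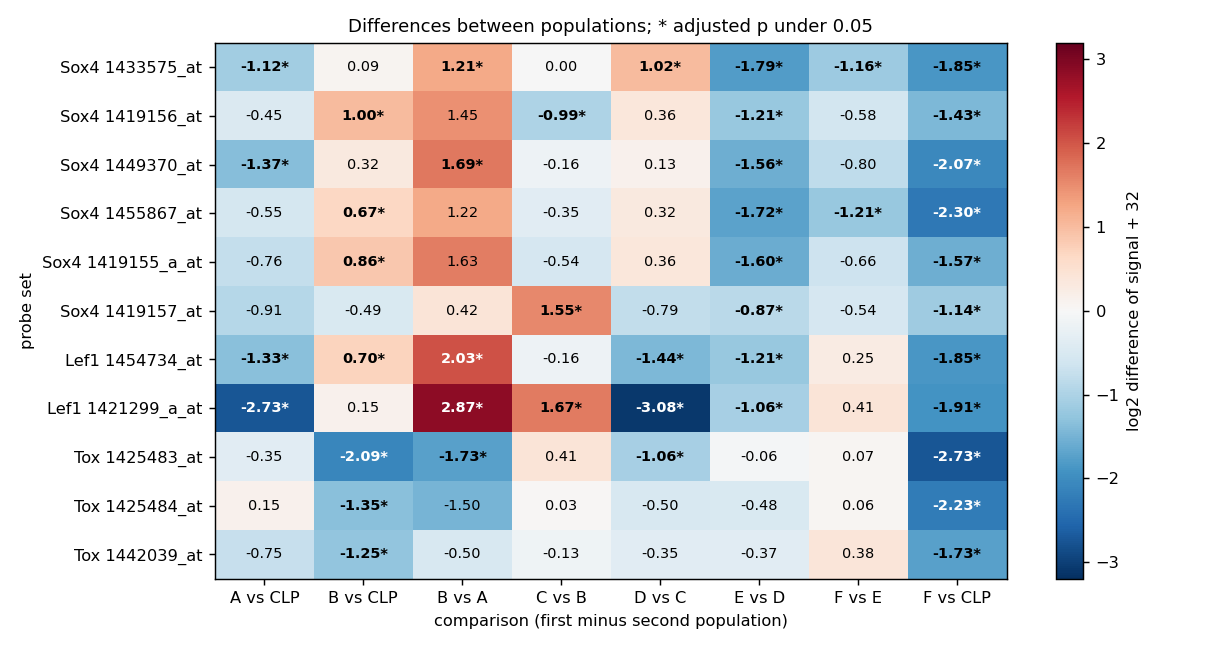
Log2 difference of signal + 32, first population minus second, for 11 probe sets (rows) in 8 comparisons (columns); red is higher and blue lower in the first population, and an asterisk marks an adjusted p under 0.05. Only the Sox4 row of 1433575_at has a called rise in D vs C, and the E vs D column is lower throughout for Sox4 and Lef1.

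The Tox signal was highest in CLP and fraction A and low in B, D, E and F, while the arrays of C were split. Its locus is chr4:6686353-6991557 on GRCm38.p6. The brightest probe set, 1425483_at, gave 269.5, 343 and 511 in CLP, 125, 304 and 437 in A and 29, 62.5 and 88.2 in B (lowest, median and highest). It gave 233, 272, 33.4, 43.4 and 43.6 in C and 56.2, 41.4, 23.9, 16.3 and 11.4 in D. In E the signals were 22.2, 7.6, 38.6, 20.5 and 45.6, and in F 30.6, 63.3, 28, 9.4 and 21.4. All 14 arrays of CLP and A were at or above their array's median, against 1 of 7 in B, 2 of 5 in C and 0 of 15 in D, E and F. Signals below the array median have no sure order.

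B averaged 64.1 ± 21.3 and CLP 375 ± 93.6 (SD, n = 7 each), a difference of -2.09 ± 0.22 with no overlap (adjusted p = 2.42e-06), and B and A differed by -1.73 ± 0.33 (adjusted p = 0.00127). A and CLP differed by -0.35 ± 0.29 (95% interval -0.97 to 0.26, adjusted p = 0.426). In B vs CLP all 3 Tox probe sets were lower (-2.09, -1.35 and -1.25), and so were they in F vs CLP (-2.73, -2.23 and -1.73, adjusted p = 1.32e-08, 1.63e-06 and 9.57e-06). These 3 passed the filter mainly through CLP and A, and 1442039_at through these alone. Their being lower in B and F thus follows in part from the filter. In the order of 1425483_at no pair of neighbours passed (smallest adjusted p = 0.0864, for A over C and for B over F).

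Fraction C was split on Tox: arrays 1 and 2 stood at 233 and 272, and arrays 3 to 5 at 33.4 to 43.6. The NK marker sums of C arrays 1 to 5 were 7662, 3059, 1899, 2289 and 2869, so that the 2 arrays high on Tox also had the 2 largest sums. Array 2 exceeded array 5 only slightly. Arrays 1 and 2 also had the 2 lowest B lineage sums (52000 and 46954, others 63981 to 77493). Their ILC marker sums were the largest (1151 and 663, others 446 to 614). Sums of T and of plasmacytoid dendritic cell markers did not separate them from the other C arrays. The part of these sums in the Tox, Sox4 and Lef1 signals of C was not tested. The D vs C difference of -1.06 ± 0.42 lay at the threshold (adjusted p = 0.05), and its call was lost in 13 of 20 alternatives. It was lost without C array 1 or 2 (-0.79 and -0.74, adjusted p = 0.138 and 0.149) or D array 2, 3, 4 or 5 (0.0589 to 0.107). Changes of processing also removed it, among them quantile normalization (0.0524), median centring (0.0721), no filter (0.0642) and eBayes without trend and robust (0.0688).

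Within A the other 2 Tox probe sets were uneven between arrays. On 1425484_at arrays 1, 2, 3 and 5 gave 375, 626, 657 and 459, and arrays 4, 6 and 7, those with the larger B lineage sums, gave 46.4, 248 and 124. On 1442039_at arrays 4, 6 and 7 gave 5.90, 8.40 and 2.90 and the other 4 gave 98.3 to 186. With all 7 A arrays the difference of A and CLP on 1425484_at was 0.15 ± 0.44 (adjusted p = 0.85), and without arrays 4, 6 and 7 it was 0.94 (adjusted p = 0.0141). B and A then differed by -2.29 on 1425484_at and -1.50 on 1442039_at (adjusted p = 0.000288 and 0.00452), against -1.50 and -0.50 with all arrays (adjusted p = 0.0517 and 0.553). Arrays 4, 6 and 7 were the lowest of A on both probe sets. Leaving them out had to raise A, and the calls so gained give no separate evidence. Leaving out A array 4, A array 7 or B array 1 alone was enough for the call on 1425484_at (adjusted p = 0.00535, 0.0331 and 0.0409). Sums of 9 T markers were 2456 to 5431 in A and 2127 to 8891 in CLP, against 300.4 to 1049 in B, and sums of 6 ILC markers were 9826 to 36227 in A and 2334 to 8251 in CLP, against 178 to 1276 in B. Sums of 7 plasmacytoid dendritic cell markers were 15666 to 40483 in A and 11515 to 17355 in CLP, against 5745 to 7141 in B. All 3 lists were thus lower in B, as Tox was. Between A and CLP, where Tox 1425483_at was not called, 1 of 8 tested T markers was higher and 2 lower. Of 7 plasmacytoid dendritic markers 4 were higher and 0 lower. Of 6 ILC markers 2 were higher (Il18r1, 12686 in A against 1895 in CLP, and Id2) and 2 lower (Gata3, 100.1 against 346, and Arg1). The ILC sum of A thus rests mainly on Il18r1 and Id2. Of all probe sets 5.51% were higher and 12% lower in A than in CLP. The part of the 3 lists in the Tox signal was not tested.

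**Figure D4:**
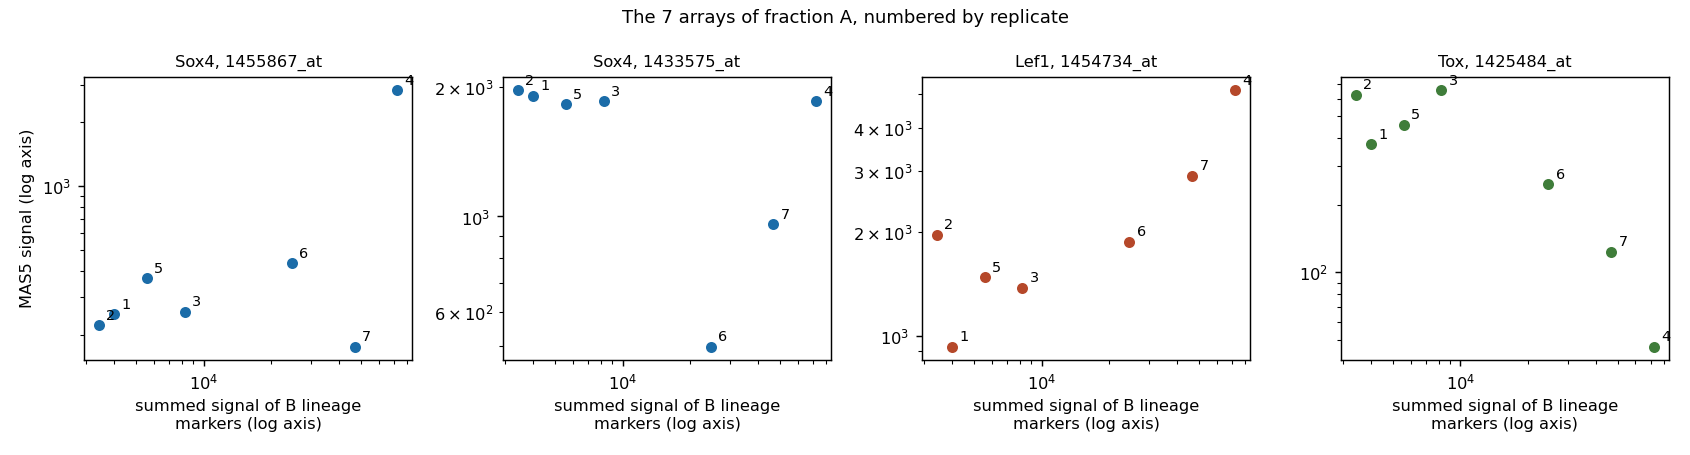
Signal (log axis) of 2 Sox4, 1 Lef1 and 1 Tox probe set on the 7 arrays of fraction A against the summed signal of 9 B lineage markers on the same array (log axis); numbers are replicate numbers. Arrays 4, 6 and 7 have the largest marker sums; array 4 is highest on Lef1 1454734_at (5152) and lowest on Tox 1425484_at (46.4).

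On the brightest probe sets the 3 genes had their highest means in different populations, and correlations between them over the 41 arrays were modest, as a description of arrays that share populations: 0.51 for Sox4 with Lef1, 0.20 for Lef1 with Tox and -0.12 for Sox4 with Tox. Within a gene they were 0.56 to 0.76 for 1433575_at with the other 5 Sox4 probe sets, 0.83 for the Lef1 pair and 0.73 to 0.83 for 1425483_at with the other Tox probe sets.

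Among 11971 genes the profiles most like Sox4 over the 41 arrays were those of Il7r, the interleukin 7 receptor (r = 0.88; 0.93 over the 7 population means), Cd93 (0.86), Tapt1 (0.85) and Xrcc6, the Ku70 subunit of DNA end joining (0.84); over the population means the last 3 gave 0.90, 0.90 and 0.91. Il7r averaged 13085 in D and 8038 in C, and Xrcc6 7770 in D and 6029 in C. Those most like Lef1 were Gfra2 (0.93), the phospholipase Plcg1 (0.92), Igll1, which encodes part of the surrogate light chain (0.91), and Bcat1 (0.90), at 0.94 to 0.97 over the population means. Those most like Tox were Thy1 (0.89), 5830432E09Rik (0.89), Tex2 (0.88) and Bex6 (0.88), at 0.96 to 1.00 over the population means. Thy1 averaged 4091 in A and 1931 in CLP, so that its maximum lay in A where that of Tox 1425483_at lay in CLP. These are descriptions of these arrays, whose points share populations and array quality.

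Of the paralogs, Tcf7l2, Sox12 and Tox4 were clearly detected in CLP by their brightest probe sets. In CLP all their other probe sets were dimmer. Tcf7l2, a TCF that also binds beta-catenin, averaged 1125 ± 451 in A and 2909.8 ± 657 in CLP, a difference of -1.40 ± 0.24 (adjusted p = 0.000728). It was 803 ± 146 in D against 1843 ± 701 in C (-1.10 ± 0.22, adjusted p = 0.000595), and 357 ± 221 in F. Sox12 averaged 190.2 ± 53.5 in F and 1249.5 ± 251 in CLP (-2.54 ± 0.19, adjusted p = 1.22e-09), and 176 ± 34.1 in D against 472 ± 160.0 in C (-1.24 ± 0.21, adjusted p = 0.00018), the step at which Sox4 1433575_at was higher. On its brightest probe set Tox4 ranged from a mean of 496 in A to 898 in B. Its other tested probe set ran differently, with its lowest mean in B, at 431 ± 84.6. That probe set averaged 663 ± 533 in A and had its highest mean in F, at 676 ± 200. The brightest probe sets of Sox11, Tcf7l1 and Tox2 averaged 166 or less in every population, and Tox3, at 58.4 or less, was not tested. Of these, Tcf7l1 and Tox2 were lower in F than in CLP (-0.87 ± 0.28 and -0.99 ± 0.37, adjusted p = 0.0117 and 0.0271). Tcf7l1 averaged 96.6 in CLP and 41.3 in F, and Tox2 151 and 74.2. Array medians were 110 to 130 in CLP and 117 to 133 in F, and signals below them have no sure order. Of the 6 tested paralogs 5 were lower and 0 higher in F than in CLP, with a median difference of -0.93, where all probe sets had 0.03 and 28.2% were lower. In A vs CLP 4 of 6 were lower (12% of all probe sets), and in D vs C 2 of 6 (21.5%).

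A list was taken of Wnt feedback and other target genes, which TCF and LEF proteins with beta-catenin are known to activate in many tissues. Of these, 9 were tested, Lef1 among them. In F vs CLP 6 of 9 were lower and 0 higher (28.2% and 28.6% of all probe sets; median -0.75 against 0.03), and in D vs C 4 of 9 were lower and 0 higher (21.5% and 20.6%; median -0.38 against 0.00), Lef1 itself being counted in both. Axin2, a negative regulator of beta-catenin, averaged 278 ± 131 in A, 57.9 ± 30 in B and 275 ± 209 in CLP, with a difference of B and CLP of -1.65 ± 0.34 (adjusted p = 0.00113), at the step where Lef1 1454734_at was higher. It was 259 ± 107 in C, above B by 1.71 ± 0.33 (adjusted p = 0.00122), and 31 ± 25.5 in D, a difference from C of -2.21 ± 0.30 (adjusted p = 1.85e-05). Nkd2, another feedback inhibitor, was likewise 667 in C against 143 in B (2.01 ± 0.36, adjusted p = 0.000681) and 179 in D (-1.64 ± 0.26 relative to C, adjusted p = 7.87e-05).

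Others of the list ran differently in some steps, although Myc was lower in D than in C, as Axin2 and Nkd2 were. Lgr5, a receptor for R-spondin, averaged 355 in B, 469 in C and 516 in D, and 99.5 in E (-2.05 ± 0.21 relative to D, adjusted p = 6.75e-07). Ccnd1, cyclin D1, averaged 4647 ± 2576 in A and 598 ± 175 in CLP (2.80 ± 0.27, adjusted p = 1.60e-06). Myc averaged 388 ± 158 in D and 2737 ± 1006 in C (-2.73 ± 0.26, adjusted p = 7.91e-07), and 1352 ± 164 in E (1.80 ± 0.21 relative to D, adjusted p = 2.52e-06).

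**Figure D5:**
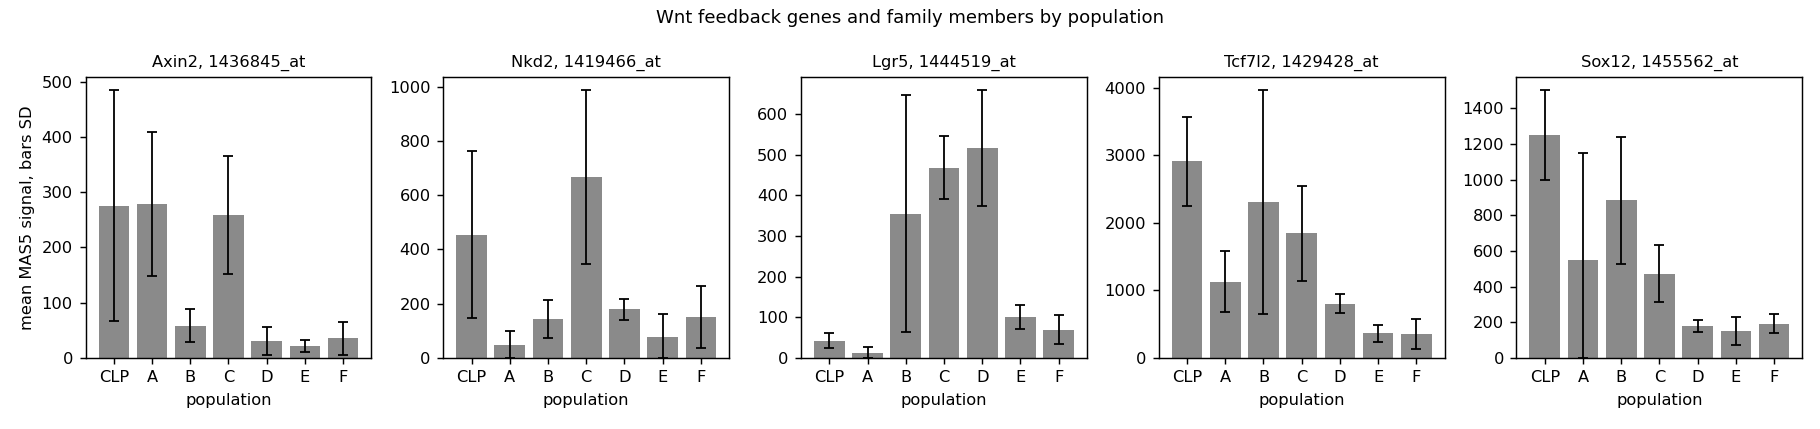
Mean MAS5 signal of 3 Wnt feedback genes (Axin2, Nkd2, Lgr5) and 2 paralogs (Tcf7l2, Sox12) by population from CLP to F; bars are means and error bars SD, cut at 0 below, over 5 to 7 arrays. Axin2 and Nkd2 are higher in C than in B and in D, while Lgr5 stays high in D.

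Of 29 tested partners of beta-catenin and TCF/LEF proteins, 8 were higher and 7 lower in D than in C (20.6% and 21.5% of all probe sets), and 8 higher and 12 lower in F than in CLP (28.6% and 28.2%), and both shares in D vs C were near the background. Beta-catenin itself (Ctnnb1), named here after its values were seen, averaged 12250.1 ± 478 in D and 10458 ± 1231 in C, a difference of 0.23 ± 0.09 (adjusted p = 0.0486). Its highest means lay in A and B, at 20915 ± 8905 and 17080 ± 1796, against 10504 ± 467 in CLP. Of the Groucho family, Tle1, a repressor, was lower in D than in C (-1.37 ± 0.27, adjusted p = 0.000609), as was Tle5, a short member without the repressor tail (-2.10 ± 0.24, adjusted p = 3.83e-06). Tle1 was dim, at 169 in C and 49.7 in D. Tle4, the brightest of the family in C and D, went the other way, at 5574 ± 747 in D and 3091 ± 836 in C, without overlap. Tle3 and Tle6 averaged 744 and 106 in D and 1571 and 183 in C. Bcl9l, a beta-catenin coactivator, was lower in D than in C (-1.36 ± 0.20, adjusted p = 4.68e-05). The corepressor Ctbp2 was higher in D (1.52 ± 0.24, adjusted p = 7.30e-05), as were Jup, or plakoglobin, a close relative of beta-catenin (1.14 ± 0.29), and Cdc73, a subunit of the Paf1 complex (0.91 ± 0.17). In E vs D only 1 of the 29 was higher and 1 lower (11.1% and 10.9% of all probe sets). The lower one was Smarca4, the chromatin remodeller Brg1 (-1.84 ± 0.13, adjusted p = 2.04e-08).

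Of 17 other tested HMG-box genes 3 were lower and 1 higher in E than in D (10.9% and 11.1% of all probe sets), and in F vs CLP 4 were lower and 4 higher (28.2% and 28.6%), no more than the background in the last. The lower ones in E were Hmgb2 (-0.62 ± 0.09, adjusted p = 4.87e-05) and Hmgb3 (-0.57 ± 0.09, adjusted p = 8.20e-05), abundant architectural chromatin proteins, and Pbrm1 (-0.39 ± 0.07, adjusted p = 0.000432), a chromatin remodeller subunit. Sox5 was higher, at 353 ± 148 in E and 133 ± 55 in D (1.22 ± 0.27, adjusted p = 0.00228), and averaged 374 ± 136 in F and 68.4 ± 45.3 in CLP (2.07 ± 0.29, adjusted p = 6.42e-06). These lists were chosen with earlier results of these data known, and they support nothing beyond their counts.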

How the data were processed

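RNA from 41 samples was measured on single-colour Affymetrix arrays. Extraction used an Arcturus PicoPure kit, and NuGEN Ovation Pico reagents amplified the RNA for biotin labelling, per the labels' protocols. The deposited intensity values are linear MAS5 signals (no version named), per the submitters' processing notes; a mean trimmed by 2% at each end came to 500 on every array, and array medians ranged from 69.1 to 153.1. Scaling to equal trimmed means leaves such shifts in place and can move the differences of A and B. Detection calls were not used, and any genome build remains not given in the sources used here.

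After 64 control probe sets were left out, 28459 of 45037 had a signal no lower than the array median on 5 or more arrays and were tested as log2(signal + 32) with limma 3.58.1 (lmFit, eBayes with trend and robust; statmod 1.5.0) in R 4.3.3. Each of 8 comparisons was fitted on its 2 populations alone, and an F-test on all 41 arrays. The code was tested on simulated data. Populations and replicate numbers came from the sample titles. Replicate numbers did not pair arrays. The highest correlation of 2 arrays was 0.979, and as no level for repeats of 1 sample was known, this cannot tell whether any arrays were such repeats. Differences between probe sets of a gene, and between neighbouring populations, were tested by exact permutation; the former test was added after the values were seen. In the platform annotation 34945 probe sets had 1 gene, 932 had several and 9160 had no entry. Named were all member probe sets, the 4 genes most like each member, every paralog, and up to 3 called members in each direction with the largest differences of each list. Members and lists were chosen with earlier results of these data known. Alternatives changed the pseudocount, filter, normalization, fit, replicate block, probe sets per gene and arrays left out.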

Additional observations from a re-analysis of the deposited data

Results flagged for a closer look

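In 5 of 77 groups of arrays the highest or lowest array stood apart from the others of its population by Dixon's criterion, which chance alone meets in about 1 group in 20. A replicate 4 was high on Sox4 1455867_at, at 2832.2 with the others between 175.5 and 433.6, and on Sox4 1419155_a_at, at 5405 with the others between 45.8 and 351.7. CLP replicate 1 was low on Sox4 1419155_a_at, at 265 with the others between 377.6 and 479.9, and on Sox4 1419157_at, at 57.5 with the others between 110.9 and 164.6. B replicate 5 was low on Lef1 1421299_a_at, at 238.7 with the others between 635.5 and 941.2.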

How the results depend on the processing

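Of 1983 alternative values for the 88 differences, 1831 kept their direction and their side of the threshold, 38 were uncalled both times with the opposite sign, 69 lost a call, 45 gained one, and a called difference reversed in 0; 31 of 43 calls held in every alternative. Member probe sets called numbered 4 in A vs CLP, 8 with all 41 arrays and array weights, 8 without A arrays 4, 6 and 7, and 4 to 6 leaving out 1 array at a time. In B vs CLP they numbered 7, 4 with a 75th percentile filter, 4 with all 41 arrays in 1 fit, and 6 to 7 leaving out 1 array. In B vs A they numbered 5, 9 with all 41 arrays, 10 with array weights, 10 without A arrays 4, 6 and 7, and 5 to 9 leaving out 1 array, with 9 without A replicate 4. In E vs D they numbered 8 and 5 with all 41 arrays, in F vs E 2 and 1 (all 41 arrays, eBayes without trend and robust, and the lowest leaving out 1 array, the highest being 2), and in F vs CLP 11 and 7 with the 75th percentile filter, as in the F-test (11 and 7), because 4 probe sets no longer entered. With 1 probe set per gene, where 3 member probe sets remain, the counts were 2 in A vs CLP, 2 in B vs CLP, 3 in B vs A, 0 against 3 in C vs B, 2 against 4 in D vs C, 2 in E vs D, 1 in F vs E and 3 in F vs CLP. Other causes were not tested.

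Over all probe sets the calls moved by more than 1.5 times with all 41 arrays in 1 fit: 9652 against 4977 in A vs CLP, 7716 against 2459 in B vs A, 5470 against 11987 in D vs C, 1824 against 6262 in E vs D and 96 against 1082 in F vs E. Array weights gave 8412 in A vs CLP, 6476 in B vs A and 10650 against 6703 in C vs B. Without A arrays 4, 6 and 7 the counts were 8367 and 3775 in A vs CLP and B vs A; quantile normalization gave 4371 and leaving out C replicate 5 gave 4335 in C vs B; eBayes without trend and robust gave 443 in F vs E. The 75th percentile filter gave 5338 against 8356 in B vs CLP and 10559 against 16178 in F vs CLP. The median of all probe sets, -0.253 in A vs CLP, -0.224 in B vs CLP and 0.252 in C vs B, became -0.113, 0.00272 and 0.0194 after quantile normalization and -0.0217, 0.201 and -0.169 after median centring. Deviations of same-numbered arrays correlated at 0.00309 on average (-0.213 to 0.207 over 111 pairs), and 9 of 41 arrays correlated best with their own number. With the replicate number as a block, member calls numbered 4 and 6 for A and B against CLP, 7 for B against A, 3 in C vs B, 5 in D vs C, 8 in E vs D, 2 in F vs E and 11 in F vs CLP. Signals below an array's median, as of Tox in D, E and F, have no sure order.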
